A study of Mus musculus with 4 samples.

Results

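Mesenchymal cells of the mouse back skin that carried a lineage reporter were compared with mesenchymal cells of the same libraries that did not. Mesenchymal cells were chosen among all cell barcodes as those with at least 500 detected genes, at least 1000 unique molecular identifiers (UMIs, one per captured RNA molecule), under 10% of UMIs in mitochondrial genes, at least 5 UMIs of the collagen gene Col1a1 and none of the leukocyte gene Ptprc. Cells with at least 3 UMIs of the eYFP entry that the submitters added to the gene list are called marked, and cells with no eYFP UMI unmarked. This gave 5691 marked and 1066 unmarked cells among 8089 mesenchymal cells, and 1332 mesenchymal cells with 1 or 2 eYFP UMIs were set aside. The 4 files held 17130 barcodes, of which 13877 passed the filters on genes, UMIs and mitochondrial share.

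All mice were on the C57BL/6J background and carried α-SMACreERT2, a Cre recombinase that the promoter of α-smooth muscle actin drives and tamoxifen switches on, with a reporter at the Rosa locus. Every mouse was given 4-hydroxytamoxifen on postnatal days 3 and 4, and no uninduced or Cre-free mouse is among the samples. One library of 2-month-old and one of 18-month-old α-SMACreERT2:RosaYFP mice were made with version 2 of the 10x Genomics 3' chemistry. Another library of 2-month-old and one of 12-month-old α-SMACreERT2:RosaTDTomato mice were made with version 3. The labels give n = 2 mice per sample and 10000 sorted cells, 5000 reporter-positive and 5000 Cd26-positive ones, all of which had to stain for Itga9 or Cd200 besides. Chemistry and labelled reporter change together between the version 2 and version 3 pairs, the older age is 18 months in one and 12 in the other, and each age of each chemistry is 1 library. The labels of the version 3 libraries name TdTomato, yet the eYFP entry held counts in all 4 libraries, and it is used here as the mark in each.

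Smooth muscle actin is made in skin by the dermal sheath, the cup of connective tissue around the hair follicle, by the arrector pili muscle and by the mural cells of blood vessels. A Cre under this promoter, switched on shortly after birth, marks cells that make the protein at that time, and the mark is inherited by their descendants. The dermal sheath holds progenitor cells that can renew the sheath and supply cells to the dermal papilla, the signalling centre at the base of the follicle, whereas fibroblasts of the dermis between follicles mostly do not make smooth muscle actin.

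Values below are given in the order 2 months and 18 months (version 2), then 2 months and 12 months (version 3), unless a sentence says otherwise. The libraries held 445, 692, 2677 and 1877 marked and 94, 275, 292 and 405 unmarked cells. Marked cells were deeper than unmarked cells in each library, with median UMIs of 7282, 8490, 14819 and 14378 against 5680, 6383, 9117 and 10030.0. Cell barcodes were mostly not shared between libraries, with 84 shared by the version 3 pair, 7 by the version 2 pair and at most 1 by any other pair. The files held 1906 barcodes for the library labelled 2 months and 2727 for the one labelled 18 months in version 2, whereas the labels give 2604 and 3776 recovered cells. The series' design text gives 2707 cells for a first and 1906 for a second sample without naming their ages, and whether the 2 libraries were exchanged could not be checked. The ages are used as the sample labels give them, and an exchange would invert every version 2 ratio between ages.

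The share of mesenchymal cells that were marked was 76.9% (95% exact binomial interval 73.2 to 80.2), 55.0% (52.2 to 57.7), 77.3% (75.8 to 78.7) and 67.3% (65.6 to 69.1). In each chemistry the older library had the smaller share. The 2 sorted gates were mixed at a fixed number of cells, so these shares follow from the sort and the recovery as well as from the tissue, and the intervals cover counting error only. Just inside the threshold, 22, 47, 237 and 121 cells had 3 to 5 eYFP UMIs, and just outside it 40, 292, 495 and 505 cells had 1 or 2. Marked cells had a median of 18, 46, 31 and 39 eYFP UMIs.

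Counts of eYFP were not limited to mesenchymal cells. Among cells with at least 1 Ptprc UMI, 63.6%, 66.2%, 72.4% and 58.9% had at least 1 eYFP UMI, at median depths of 10496, 7865, 9077 and 8306 UMIs, and 50.0%, 30.9%, 24.4% and 14.7% had at least 3. At 10 or more UMIs the shares of these cells were 28.4%, 24.0%, 9.97% and 8.0%. No limit on Col1a1 was set for them, so cells other than leukocytes that held 1 Ptprc UMI can be among them. Cells with at least 20 Krt14 UMIs and under 5 Col1a1 UMIs, which fit basal keratinocytes, reached 10 eYFP UMIs in 0 of 57, 2 of 39, 2 of 73 and 2 of 69 cells, and 0 of 57 allows a share of up to 6.27%. Cells with at least 5 UMIs of Rgs5, a gene of mural cells, reached 3 eYFP UMIs in 98.9%, 99.3%, 93.9% and 83.3%. Mesenchymal cells reached 10 eYFP UMIs in 63.9%, 49.6%, 66.2% and 60.5%. At least 3 eYFP UMIs were seen in 15.8%, 25.6%, 19.2% and 26.1% of the cells that fit basal keratinocytes. Counts of 3 or more thus occurred in these cells, in which the promoter is not known to be active, and in cells with Ptprc. A marked cell near the threshold can lie within that background.

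**Figure D1:**
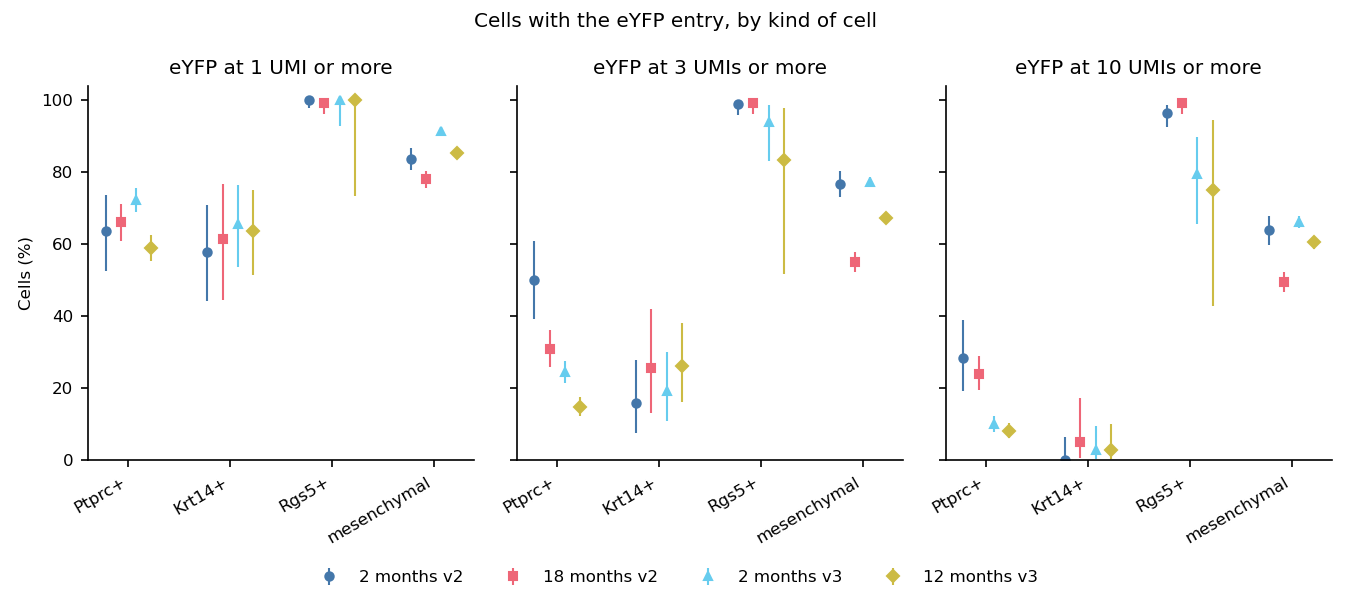
Percentage of cells with at least 1, 3 or 10 eYFP UMIs in 4 kinds of cells, by library, with 95% exact binomial intervals. Ptprc+ cells have at least 1 Ptprc UMI, Krt14+ cells at least 20 Krt14 and under 5 Col1a1 UMIs, and Rgs5+ cells at least 5 Rgs5 UMIs. At 10 UMIs or more, mesenchymal cells were at 49.6% to 66.2% and Krt14+ cells at 0% to 5.13%.

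Expression was then read by the number of eYFP UMIs in a cell, as CPM (UMIs of a gene per 1000000 UMIs without eYFP) summed over the cells of a range. Acta2, which encodes α-smooth muscle actin, was at 539, 512, 803 and 1135 CPM in cells with no eYFP UMI. Cells with 1 or 2 eYFP UMIs were at 670.4, 895, 785 and 1140 CPM and those with 3 to 9 at 1072, 382, 1013 and 1724 CPM. Cells with 10 or more eYFP UMIs were at 3524, 3139, 7955 and 8005 CPM, above each of the lower ranges in every library. Ednrb, an endothelin receptor gene, had the same step, from 20.2, 85.3, 84.0 and 160.0 CPM at no eYFP UMI to 365, 698, 1376 and 1888 CPM at 10 or more, with 77.4, 35.7, 135 and 408 CPM at 3 to 9. Rspo3, a Wnt agonist gene, went the other way, from 185, 104, 524 and 109 CPM through 157, 106, 222 and 65.9 CPM at 3 to 9 eYFP UMIs to 73.1, 21.6, 18.7 and 4.13 CPM at 10 or more. Pi16, a gene of fascia fibroblasts, was at 441, 344, 196 and 685 CPM at no eYFP UMI, at 26.5, 92.6, 74.7 and 247 CPM at 3 to 9, and at 11.7, 66.2, 3.78 and 25.8 CPM at 10 or more. The largest step for Acta2 and Ednrb thus lay between 3 to 9 and 10 or more UMIs, and cells with 3 to 9 made up 16.9%, 9.83%, 14.3% and 10.2% of the marked cells.

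**Figure D2:**
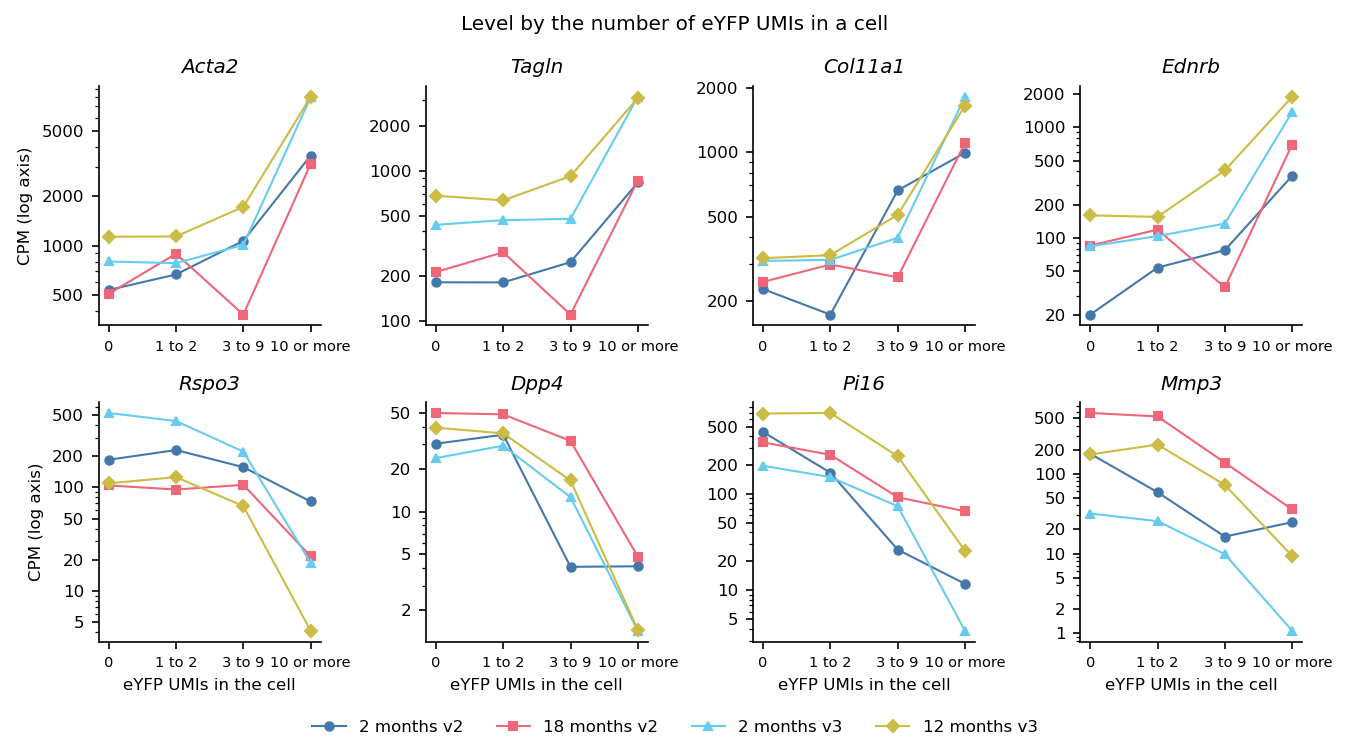
CPM (log axis) of 8 genes in mesenchymal cells grouped by the number of eYFP UMIs in the cell, 1 line per library. Acta2, Tagln, Col11a1 and Ednrb are highest at 10 or more eYFP UMIs in all 4 libraries, and Rspo3 and Pi16 are lowest there.

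Counts were summed over the marked and over the unmarked cells of each library and compared within libraries by edgeR's quasi-likelihood test over 11529 genes, with the genes of the cell rule left out. At a Benjamini-Hochberg adjusted p under 0.05, 823 genes (7.14%) were higher and 899 (7.8%) lower in marked cells, 14.9% in all. The counts of called genes in each list below are to be set beside these shares. The median log2 fold change over all genes tested was 0.00336. The labels do not say whether the mice of a sample were pooled, and the p-values measure the spread between these 4 libraries, not between mice. In sums such as these, fewer cells of a type and less RNA per cell cannot be told apart. Without the 12-month library 671 genes were called and without the version 3 library of 2 months 957. The 12 largest positive log2 fold changes that passed the rule for named genes were those of Rgs5 (5.52), Casq2 (4.53), 6330403A02Rik (4.27), Myh11 (4.03), Fbxl22 (3.88), Cnn1 (3.68), Ednrb (3.58), Mcam (3.51), Zdhhc2 (3.50), Lmod1 (3.39), Kank4 (3.16) and Sbspon (3.13). The 12 largest negative ones were those of C3 (-4.11), Serpina3c (-3.78), Aldh1a1 (-3.65), Aldh3a1 (-3.61), Pi16 (-3.57), Sectm1a (-3.57), Cyp2f2 (-3.57), Angptl1 (-3.55), Cdh4 (-3.52), C4b (-3.39), Mmp3 (-3.34) and Lsamp (-3.32). Serpina3c belongs to a cluster of near-identical genes, so its counts are uncertain. Rgs5 had 3, 3, 3 and 1 UMIs in unmarked cells and Casq2 none in those of the version 2 library of 2 months, so their fitted fold changes are imprecise.

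These leading genes fall into a few kinds. Casq2, which stores calcium in the muscle reticulum, was at 24.6, 30.1, 80.9 and 78.3 CPM in marked and 0, 3.1, 3.67 and 3.03 CPM in unmarked cells. Its groups were far apart in all libraries. Mcam, an adhesion molecule of mural and smooth muscle cells, was at 80.2, 85.6, 73.7 and 98.2 against 1.45, 8.78, 8 and 10.5 CPM, with the lowest unmarked level in the version 2 library of 2 months. Rgs5, a regulator of G protein signalling in pericytes, was at 298, 117, 15.3 and 2.47 against 4.34, 1.55, 1 and 0.233 CPM, and the marked value of the 12-month library lay below the highest unmarked value. The palmitoyltransferase gene Zdhhc2 was at 17.3, 22.5, 43.3 and 50.3 against 2.89, 3.62, 5.33 and 2.57 CPM, without overlap. The lower side held several enzyme genes. Aldh3a1, an aldehyde dehydrogenase, was at 3.83, 15.9, 0.968 and 4.87 against 83.8, 146, 8.34 and 85.2 CPM, and Cyp2f2, a cytochrome P450, at 1.37, 34.6, 1.77 and 13.8 against 53.5, 266, 14.7 and 267 CPM. Both were higher in the older library of each chemistry in both groups, so that marked cells of 18 months exceeded unmarked cells of the version 3 library of 2 months. The secreted factor gene Angptl1 was at 3.29, 20, 1.8 and 4.59 against 86.7, 92, 32 and 75.4 CPM, and the complement gene C4b at 0.548, 18.3, 6.34 and 3.34 against 46.3, 210.3, 32.3 and 48.3 CPM, both without overlap.

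Genes of the contractile apparatus had the highest median among the 21 gene lists, leaving aside the lists of other cell types, of which that of the arrector pili muscle was higher (2.41). Of 16 listed genes 15 were tested, and 14 were higher in marked cells, none was lower and Des was not called, against 7.14% of all genes tested called higher. The median log2 fold change of the list was 2.19, beside 0.00336 over all genes. Acta2 was at 3194, 2811, 6795 and 7402 CPM in marked and at 539, 512, 803 and 1135 CPM in unmarked cells. Each marked value lay above all unmarked values, and groups that did not overlap, in either direction, were seen in 10.4% of all genes tested. The log2 fold change of Acta2 was 2.79 ± 0.17 (SE), adjusted p = 0.000565. Tagln, an actin-binding protein of smooth muscle, was at 762, 778, 2706 and 2888 against 181, 212, 439 and 687 CPM. Its groups did not overlap either, with a log2 fold change of 2.25 ± 0.18 (SE), adjusted p = 0.000916. Actg2, the γ-actin of smooth muscle, was at 430.5, 368, 758 and 692 CPM in marked and 70.8, 68.7, 98.4 and 82.1 CPM in unmarked cells, a log2 fold change of 2.86 ± 0.18 (SE), adjusted p = 0.000565. The actin-bundling protein gene Synpo2 was at 24.1, 16.8, 66 and 27 CPM against 1.45, 3.1, 12 and 5.13 CPM, and the regulatory myosin light chain gene Myl9 at 1093, 832, 1308 and 1035 against 552, 300.2, 513 and 358 CPM. Both passed the test, with log2 fold changes of 2.66 ± 0.18 and 1.42 ± 0.13 (SE), and in both no library's marked value reached down to an unmarked one.

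Myh11, the heavy chain of smooth muscle myosin, was at 54.2, 28.6, 274 and 9.64 CPM in marked and at 2.89, 1.55, 17.3 and 1.17 CPM in unmarked cells. Marked exceeded unmarked within each library, but the marked value of the 12-month library lay below the unmarked value of the version 3 library of 2 months. The log2 fold change was 4.03 ± 0.19 (SE), adjusted p = 0.000534. Cnn1, a calponin that binds actin, was at 42.7, 11.3, 116 and 10.6 CPM against 2.89, 2.07, 11 and 0.233 CPM and had the same overlap between libraries, with a log2 fold change of 3.68 ± 0.30 (SE), adjusted p = 0.00101. Markers of other contractile cell types moved with these genes. Of 6 tested pericyte genes Rgs5, Mcam and Cspg4 were higher in marked cells, and the summed level of the list was 529, 281, 165 and 172 CPM in marked against 59.3, 78.0, 76.0 and 59.96 CPM in unmarked cells, with Higd1b at 0 in 3 of the unmarked sums. Notch3, Kcnj8 and Abcc9 of that list were not called (-0.41, -1.47 and -1.58). Of 5 arrector pili muscle genes Actg2, Cnn1 and Synm were higher, and the list summed to 576, 448, 1185 and 736 CPM against 101, 92.5, 140.0 and 102 CPM. When cells with at least 3 detected markers of another type were left out, 13 of the contractile genes were still called higher. Their part in the result was not tested beyond this. The log2 fold change then was 2.58 for Acta2, 2.67 for Actg2, 1.41 for Myh11 and 1.57 for Lmod1, and Cnn1 was no longer called (1.21, adjusted p = 0.187), where Cnn1 and Actg2 are themselves among the markers that removed cells.

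The regulatory sequence of the gene that drives the Cre, and of another contractile gene, is shown because many smooth muscle genes carry CArG boxes, the sites of serum response factor. The 250 bases before the start sites are from RefSeq (GRCm38.p6), on the strand of each gene, with CArG boxes in capitals and up to 1 core base other than A or T allowed. The Acta2 sequence is at chr19:34255374-34255623 (minus strand) and the Myl9 sequence at chr2:156775214-156775463 (plus strand), and both lie upstream of the annotated start.
Acta2: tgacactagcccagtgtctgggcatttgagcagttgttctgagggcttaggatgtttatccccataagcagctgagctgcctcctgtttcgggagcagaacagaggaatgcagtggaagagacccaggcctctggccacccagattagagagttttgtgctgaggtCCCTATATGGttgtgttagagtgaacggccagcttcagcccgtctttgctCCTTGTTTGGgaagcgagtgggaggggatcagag
Myl9: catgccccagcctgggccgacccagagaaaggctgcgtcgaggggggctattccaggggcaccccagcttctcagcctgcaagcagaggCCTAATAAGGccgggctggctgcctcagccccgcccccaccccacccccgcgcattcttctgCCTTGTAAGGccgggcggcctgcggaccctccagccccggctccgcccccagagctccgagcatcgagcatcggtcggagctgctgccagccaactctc
The 2 boxes of Acta2 begin 84 and 34 bases before the start site and those of Myl9 161 and 99 bases before it, and 1 of the Myl9 boxes matched exactly. Promoters were given for 12 of the 16 contractile genes, and Acta2 and Myl9 were the genes with such a box among them. The pattern reads the same on both strands, and it occurred in 8.59% of all 32851 promoters of this length, in 7.57% of those of the genes tested and in 10.9% of those of genes higher in marked cells. The transgene's own promoter sequence was not used here.

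Genes of the dermal sheath were higher as well, in 11 of 12 tested members, with a median log2 fold change of 1.46. Npr3 was the member that was not called (adjusted p = 0.253). Acta2, Tagln, Itga8, Cald1, Myl9 and Mylk are on both lists, so the lists are not independent. Col11a1, a fibrillar collagen gene of cartilage and sheath, was at 950.3, 1004, 1581 and 1543 CPM in marked and 228, 247, 309.7 and 319 CPM in unmarked cells. The groups did not overlap, and the log2 fold change was 2.26 ± 0.13 (SE), adjusted p = 0.000565. Tnmd, a membrane protein of tendon cells, was at 504, 1055, 807 and 801 against 114, 359, 86.4 and 105 CPM, a log2 fold change of 2.56 ± 0.33 (SE), adjusted p = 0.00467. Its difference was smallest in the 18-month library, where unmarked cells had the highest level among the unmarked sums. Acan, the cartilage proteoglycan aggrecan, was at 113, 73.8, 111 and 111 against 34.7, 28.9, 42 and 46.9 CPM (log2 fold change 1.495 ± 0.11 SE, adjusted p = 0.000793). Among 10 tested genes of tendon and cartilage type, Col11a1, Acan, Tnmd and Thbs4 were higher and Fmod, Cilp and Kera lower, with a median of 0.32. Thbs4, a thrombospondin of tendon, was at 58.9, 61.4, 163 and 304 against 4.34, 25.3, 42.3 and 49.5 CPM, without overlap.

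**Figure D3:**
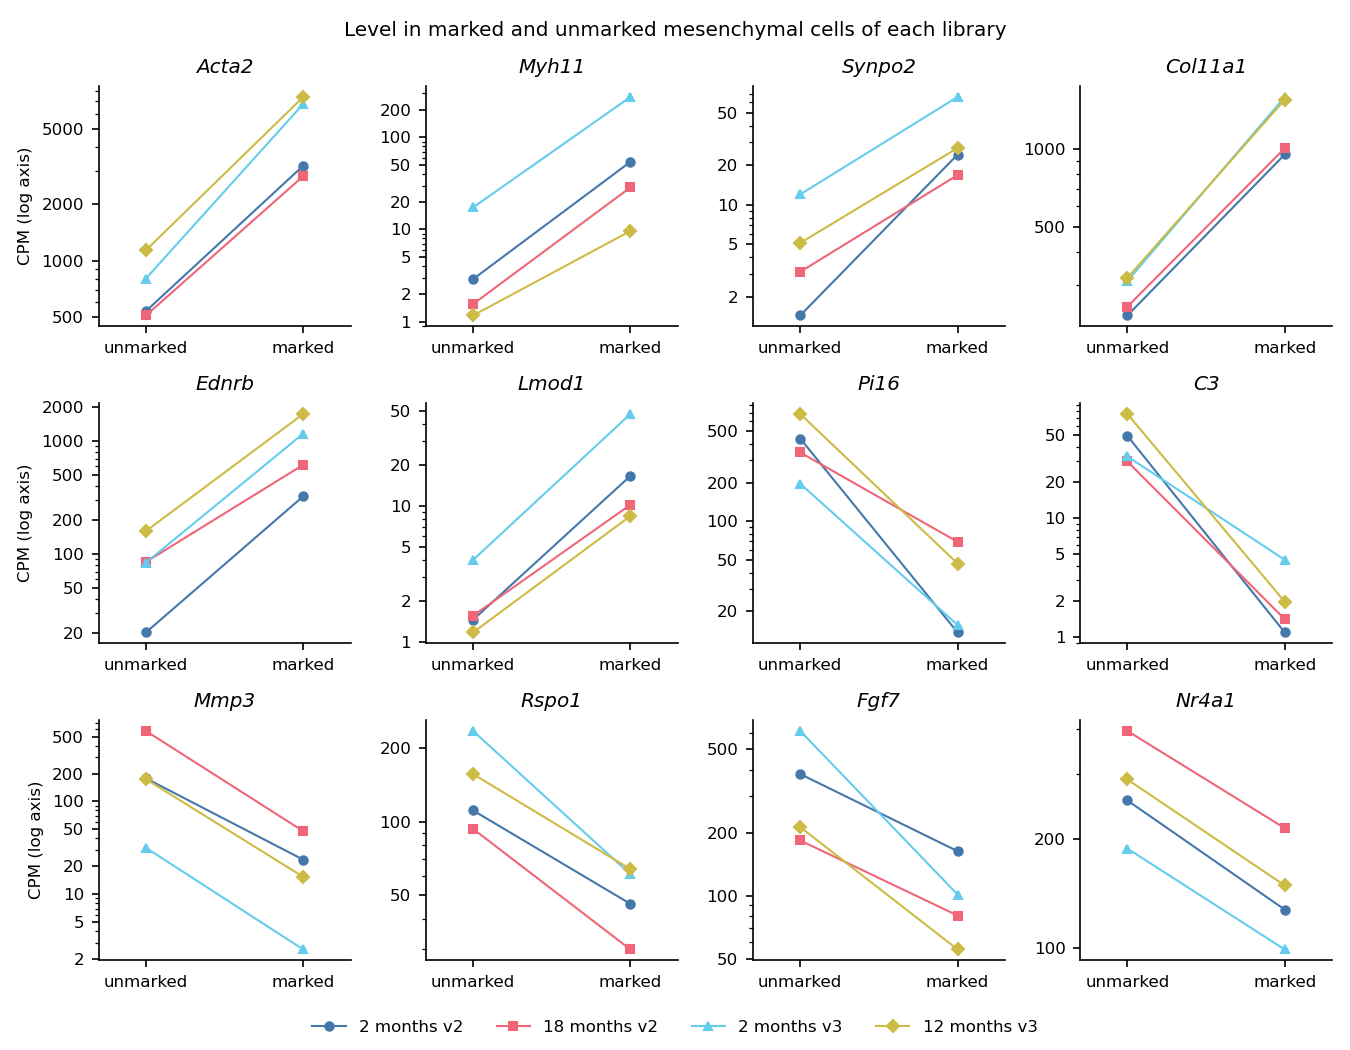
CPM (log axis) of 12 genes in the unmarked and marked mesenchymal cells of each library, 1 line per library. Within every library Acta2, Myh11, Synpo2, Col11a1, Ednrb and Lmod1 were higher in marked cells and Pi16, C3, Mmp3, Rspo1, Fgf7 and Nr4a1 were lower.

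Endothelin signalling genes differed in both directions. Ednrb was at 326, 619, 1169 and 1746 CPM in marked and at 20.2, 85.3, 84 and 160.1 CPM in unmarked cells. All marked values exceeded all unmarked ones, and the log2 fold change was 3.58 ± 0.23 (SE), adjusted p = 0.000565. The other receptor gene, Ednra, was also higher (log2 fold change 1.31 ± 0.14 SE, adjusted p = 0.0027), whereas the ligand gene Edn3 was lower (log2 fold change -3.06 ± 0.36 SE, adjusted p = 0.00342). These belong to a list of 25 growth factor and receptor genes, of which 7 were higher and 11 lower, with a median of -0.29. Igf1, the insulin-like growth factor gene, was at 53.1, 85.6, 51.9 and 62.9 CPM in marked and 236, 225, 218 and 327 CPM in unmarked cells. All marked values lay below all unmarked ones, and the log2 fold change was -1.91 ± 0.15 (SE), adjusted p = 0.000882. Igfbp6, a binding protein of these factors, was at 80.2, 222, 67 and 108 against 262, 637, 397 and 578 CPM (log2 fold change -1.97 ± 0.16 SE, adjusted p = 0.00101). The hepatocyte growth factor gene Hgf was low in both, at 0.548, 1.26, 0.323 and 1.32 against 2.89, 9.3, 6 and 21.9 CPM, a log2 fold change of -3.60 ± 0.32 (SE), adjusted p = 0.00128. Without the 12-month library 4 members of the list were called higher and 6 lower.

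Dermal papilla genes were mostly lower in marked cells. Of 20 tested members 12 were lower and 2, Tbx18 and Corin, higher, beside 7.8% of all genes called lower, and the median log2 fold change was -1.33. Fgf7, a growth factor that papilla cells make, was at 163, 80.6, 101 and 55.5 CPM in marked and 382, 184, 613 and 213 CPM in unmarked cells. Each library had less in marked cells and the groups did not overlap, with a log2 fold change of -1.66 ± 0.21 (SE), adjusted p = 0.004. Alpl, the alkaline phosphatase used to stain the papilla, was at 24.4, 6.77, 23.1 and 7.06 against 47.7, 18.6, 167 and 53.7 CPM. The marked cells of both 2-month libraries lay above the unmarked cells of the 18-month library, so the groups overlapped although each library showed the difference (log2 fold change -2.12 ± 0.31 SE, adjusted p = 0.00721). Tbx18, a transcription factor of papilla and sheath, was at 61.9, 69.5, 87.3 and 92.3 against 13, 19.1, 23 and 22.4 CPM, without overlap (log2 fold change 2.09 ± 0.12 SE, adjusted p = 0.000565). Apela, a small peptide hormone gene, was low in both, at 4.38, 0.787, 3.71 and 0.244 against 18.8, 2.58, 31 and 5.13 CPM (log2 fold change -2.83 ± 0.38 SE, adjusted p = 0.00505). Corin, a membrane protease of papilla cells, was at 146, 94.1, 126 and 138 against 133, 56.8, 106 and 98.5 CPM, with overlapping groups (log2 fold change 0.49 ± 0.12 SE, adjusted p = 0.0365). The number of papilla genes called lower was 5 without the version 3 library of 2 months, 7 without the 12-month library, 6 in the version 2 libraries alone and 3 when at least 20 Col1a1 UMIs were required, with the same direction for Fgf7 but no call (-0.65, adjusted p = 0.281). Over all settings run, the number of papilla genes called lower ranged from 0 to 16.

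The Wnt pathway, which directs hair growth through ligands, their antagonists and receptor-binding R-spondins, had 14 of 21 tested members lower and 1, the secreted protein gene Dkk3, higher, with a median of -1.54. Of all genes tested, 7.8% were called lower. Rspo1 was at 46, 29.9, 60.8 and 63.9 CPM in marked and at 111, 93.5, 236 and 157 CPM in unmarked cells. The groups stood apart, with a log2 fold change of -1.46 ± 0.14 (SE), adjusted p = 0.00173. The R-spondin genes Rspo2, Rspo3 and Rspo4, the ligand Wnt5a, the nuclear factor Lef1 and the feedback genes Axin2, Nkd1 and Notum were lower too. Sfrp1, a secreted Wnt antagonist, was at 26.3, 15.3, 31 and 5.18 against 106, 67.7, 257 and 89.4 CPM, without overlap (log2 fold change -2.78 ± 0.32 SE, adjusted p = 0.00302), and Sfrp2 at 28.2, 29.9, 12.9 and 3.58 against 171, 75.4, 74.4 and 29.4 CPM (log2 fold change -2.28 ± 0.24 SE, adjusted p = 0.0023). The feedback inhibitor gene Nkd2 was at 43.3, 21.6, 34.3 and 21.7 against 86.7, 56.3, 133 and 102 CPM (log2 fold change -1.60 ± 0.18 SE, adjusted p = 0.00274). Agonists and antagonists of the pathway were therefore both among the lower genes. The count called lower was 7 without the version 3 library of 2 months and 8 without the 12-month library.

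Bone morphogenetic protein (BMP) genes had 10 of 17 tested members lower, beside 7.8% of all genes, and 1, the ligand Bmp3, higher, with a median of -1.10. Sostdc1, an antagonist of BMP and Wnt ligands, was at 208, 118, 117 and 22.2 CPM in marked and 1226, 343, 1188 and 229 CPM in unmarked cells. Marked values were below unmarked values throughout, and the log2 fold change was -2.63 ± 0.28 (SE), adjusted p = 0.00237. The ligand gene Bmp7 was at 8.49, 5.03, 4.82 and 3.55 against 15.9, 23.8, 37.3 and 40.8 CPM (log2 fold change -2.55 ± 0.35 SE, adjusted p = 0.00519). Bmp2, another ligand, was at 4.93, 6.77, 9.1 and 5.57 against 11.6, 17.6, 22.3 and 36.2 CPM (log2 fold change -1.65 ± 0.29 SE, adjusted p = 0.0125). In both, all marked values lay below all unmarked ones. Id2, a target gene of BMP signalling, was at 129.8, 88.3, 75.2 and 60.3 against 172, 250.1, 229 and 136 CPM (log2 fold change -1.10 ± 0.19 SE, adjusted p = 0.0135). Without the 12-month library 5 of the BMP genes were called lower.

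Among 17 tested genes of TGF-β signalling 3 were higher (Ctgf, Thbs1 and Postn) and 8 lower, with a median of -0.45. Ltbp1, which binds latent TGF-β in the matrix, was at 64.9, 46.1, 34 and 15.8 CPM in marked and 204, 209, 194 and 192 CPM in unmarked cells. Its unmarked level was nearly the same in the 4 libraries, whereas the marked level was lowest at 12 months, and the log2 fold change was -2.41 ± 0.28 (SE), adjusted p = 0.00303. The ligand Tgfb2 was lower (log2 fold change -1.33 ± 0.17 SE, adjusted p = 0.0044), as was the activin antagonist Fst (log2 fold change -1.999 ± 0.24 SE, adjusted p = 0.00342), and Ctgf, a matricellular target gene, was higher (log2 fold change 0.79 ± 0.10 SE, adjusted p = 0.0041). Hedgehog pathway genes showed 2 of 11 lower, the transcription factor Gli3 (-1.42 ± 0.21, SE) and the antagonist Hhip (-2.12 ± 0.48, SE), and none higher, a share near the 14.9% of all genes called in either direction. Of 9 Notch pathway genes the target gene Hes1 was higher (0.50 ± 0.11, SE) and the related Hey2 lower (-1.46 ± 0.32, SE), again near that share. The calls of Hhip and Hey2 were lost without the version 3 library of 2 months (adjusted p = 0.112 and 0.125) and without the 12-month library (0.082 and 0.125), and that of Hes1 without any 1 of the 4 libraries (0.067 to 0.085).

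Genes of fibroblasts outside the follicle were lower in marked cells, though not all of them. Of 14 tested genes of lower dermis and fascia, 7 were lower and 1, the microfibril gene Mfap5, higher, with a median of -0.87. Over all genes, 7.8% were called lower. Dpp4, the gene of the protein used in the sort, is among these 7, so its place there follows in part from how the cells were collected. Pi16 was at 13.7, 69.4, 15.6 and 47 CPM in marked and at 441, 344, 196 and 685 CPM in unmarked cells. The lowest unmarked library exceeded the highest marked one, and the log2 fold change was -3.57 ± 0.39 (SE), adjusted p = 0.00268. Clec3b, a plasminogen-binding protein also called tetranectin, was at 63, 108, 13.8 and 17.3 against 481, 520.3, 181 and 284 CPM (log2 fold change -3.16 ± 0.26 SE, adjusted p = 0.00105), and the actin-severing protein gene Gsn at 544, 774, 552 and 601 against 1408, 1496, 2532 and 2089.8 CPM (log2 fold change -1.497 ± 0.16 SE, adjusted p = 0.00264). Of 9 genes of upper dermis and perifollicular fibroblasts, Cyp26b1, Coch, Trps1 and Col23a1 were lower and Lrig1 higher, with a median of -0.71. Coch, a matrix protein, was at 47.9, 129, 22.7 and 23.1 against 137, 262, 102 and 106 CPM (log2 fold change -1.65 ± 0.17 SE, adjusted p = 0.0025). The transcription factor Trps1 (-1.33 ± 0.21, SE) and the membrane collagen Col23a1 (-2.16 ± 0.37, SE) followed. Of 9 adipogenic genes, Cebpb, Apoe, Cebpa and Apod were lower and Plin2 higher, with a median of -0.65. The adipogenic transcription factors Cebpb and Cebpa changed by -1.51 ± 0.12 and -1.08 ± 0.17 (log2, SE) and the lipid carriers Apoe and Apod by -1.38 ± 0.18 and -0.90 ± 0.19. The call of Apod was lost without the 12-month library (adjusted p = 0.105) and also without the version 2 library of 2 months.

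Retinoid genes had 5 of 9 tested members lower, beside 7.8% of all genes, and 1, the retinaldehyde reductase Dhrs3, higher, with the lowest median of the 21 lists (-1.64). Aldh1a1, which makes retinoic acid, was at 2.46, 22.8, 1.18 and 3.48 CPM in marked and 47.7, 205, 15.3 and 61.8 CPM in unmarked cells. The marked cells of the 18-month library lay above the unmarked cells of the version 3 library of 2 months, while every library on its own showed the difference (log2 fold change -3.65 ± 0.19 SE, adjusted p = 0.000534). Cyp26b1, which breaks retinoic acid down, was at 43.8, 74.4, 41.4 and 90.1 against 158, 382, 192 and 602 CPM (log2 fold change -2.22 ± 0.15 SE, adjusted p = 0.000603). The retinoic acid-binding protein genes Crabp1 and Crabp2 were at 195, 136, 138 and 30.4 against 731, 469, 1237 and 419 CPM and at 32.3, 28, 30.4 and 13.6 against 96.9, 74.9, 108 and 55.8 CPM, both without overlap. Enzymes of synthesis and of breakdown were thus both lower.

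Of 27 tested interstitial matrix genes 2 were higher (Col12a1 and Postn) and 7 lower, with a median of -0.09. Over all genes 7.14% were called higher and 7.8% lower, so the share of matrix genes called higher was near that of all genes. After thinning to 3000 UMIs 12 were called lower and 2 higher. The small proteoglycan gene Lum was at 209.8, 651, 37.7 and 128 CPM in marked and 1336, 3259, 276 and 1192 CPM in unmarked cells. In both chemistries the older library had the higher level in both groups, and marked was lower within each library (log2 fold change -2.69 ± 0.13 SE, adjusted p = 0.000534). Dcn, another small proteoglycan, was at 1505, 3666, 807 and 1650.5 against 4515, 13353, 1997 and 7747 CPM (log2 fold change -1.66 ± 0.17 SE, adjusted p = 0.00227). Tnxb, a tenascin of the matrix, and Fbln1, a fibulin, were lower by the same test (-2.58 ± 0.23 and -1.59 ± 0.18, SE). Col1a2, the partner chain of the collagen used in the cell rule, was at 9922, 13423, 9583 and 9797 CPM against 12982, 28829, 3792 and 7055 CPM. It was lower in marked cells of both version 2 libraries and higher in those of both version 3 libraries, with no call over all 4 (log2 fold change 0.16 ± 0.42 SE, adjusted p = 0.869) and a call in the version 2 libraries alone (-0.79, adjusted p = 0.0421). Basement membrane genes split evenly, with Col4a2, Nid2, Col4a1 and Nid1 higher and Col4a4, Lama4, Agrn and Col18a1 lower among 15. The collagen IV chains Col4a2 and Col4a1 (1.17 ± 0.11 and 0.95 ± 0.13, SE) went against Col4a4 (-3.05 ± 0.29, SE). Col4a4 was low in both groups, at 1.92, 1.26, 0.438 and 0.348 against 10.1, 12.4, 4.33 and 3.73 CPM. Nid2, a linker protein of basement membranes, was at 151, 152, 154 and 169 against 66.5, 42.9, 27.3 and 44.3 CPM (log2 fold change 1.97 ± 0.23 SE, adjusted p = 0.00335).

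Of 18 protease and inhibitor genes 2 were higher and 8 lower, beside 7.14% and 7.8% of all genes, with a median of -0.46. The stromelysin gene Mmp3 was at 23.6, 47.8, 2.53 and 15.4 CPM in marked and 178, 577, 31.7 and 174 CPM in unmarked cells. The difference held within each library, but the marked cells of the 18-month library reached above the unmarked cells of the version 3 library of 2 months (log2 fold change -3.34 ± 0.15 SE, adjusted p = 0.000534). Mmp2, a gelatinase, was at 136, 275, 71.3 and 127 against 512, 924, 184 and 444 CPM (log2 fold change -1.62 ± 0.14 SE, adjusted p = 0.00131), and Adamts9, a protease of the versican-cleaving family, was higher at 32, 45, 58.6 and 64.7 against 15.9, 17.1, 27.7 and 15.2 CPM (log2 fold change 1.56 ± 0.21 SE, adjusted p = 0.00516). Among 17 chemokine, cytokine and complement genes 8 were lower and none higher, with a median of -1.05. The central complement component C3 was at 1.1, 1.42, 4.47 and 1.98 CPM in marked and 49.2, 30, 33 and 75.1 CPM in unmarked cells, without overlap (log2 fold change -4.11 ± 0.46 SE, adjusted p = 0.00293). Ccl11, which attracts eosinophils, was at 19.7, 32.9, 4.42 and 10.8 against 73.7, 145, 56.7 and 148 CPM (log2 fold change -2.85 ± 0.32 SE, adjusted p = 0.00283). The complement enzyme gene C1s1 and factor B, Cfb, were lower too (-1.06 ± 0.09 and -3.47 ± 0.32, SE), as was the protease gene Adamts1 (-1.25 ± 0.16, SE). Without the 18-month library 4 proteases and 5 complement or chemokine genes were called lower. Without the 12-month library 4 proteases were called lower, and without the version 3 library of 2 months 5.

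Immediate early genes, which respond within minutes to stimuli that include tissue dissociation, had 14 of 21 tested members lower in marked cells, beside 7.8% of all genes, and none higher, with a median of -0.76. Nr4a1, a nuclear receptor of this group, was at 128, 214, 99.2 and 149 CPM in marked and 254, 395, 188 and 290.5 CPM in unmarked cells. Each library had more in unmarked cells, while the marked cells of the 18-month library exceeded the unmarked cells of the version 3 library of 2 months (log2 fold change -0.86 ± 0.10 SE, adjusted p = 0.00293). Egr1 was at 186, 386, 452 and 674 against 312, 709.9, 1196 and 1373 CPM (log2 fold change -0.93 ± 0.11 SE, adjusted p = 0.00297) and Fos at 576, 1196, 685 and 1471 against 766, 1511, 1539.7 and 2052 CPM (log2 fold change -0.52 ± 0.13 SE, adjusted p = 0.0413). Btg2, an antiproliferative gene, and Dusp1, a phosphatase of MAP kinases, were lower by -0.73 ± 0.10 and -0.76 ± 0.13 (log2, SE). Depth moved with this difference as given above, and when every cell was thinned to 3000 UMIs 15 members were called lower. The groups were drawn anew from the thinned counts there, with 97, 372, 353 and 592 unmarked cells, so group membership changed along with depth. Without the 12-month library 5 were called lower, without the 18-month library 9, and 1 when 1 Col1a1 UMI was enough to enter. The count ranged from 0 to 16 over all settings run.

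Cell division genes had 3 of 12 higher, beside 7.14% of all genes, namely Birc5 (0.71 ± 0.12, SE), Cenpf (1.16 ± 0.22, SE) and Top2a (0.59 ± 0.12, SE). After thinning to 3000 UMIs Birc5 and Top2a turned to -0.14 and -0.10 without a call, and all 3 calls were lost without the 12-month library (adjusted p from 0.077 to 0.11). That of Top2a was also lost without the 18-month library (0.052) or the version 3 library of 2 months (0.074). No cell division gene was called higher in the version 2 libraries alone or against unmarked cells with no Dpp4 UMI. After thinning 1 member of the list was called higher and 1 lower. Of the genes of cell cycle arrest and senescence the cyclin Ccnd2 was lower (-1.40 ± 0.24, SE) and none was higher. The call of Ccnd2 was lost without the 18-month library (adjusted p = 0.0526). Cdkn2a, the gene of the cell cycle inhibitor p16, was not called (log2 fold change -0.51 ± 0.46 SE, adjusted p = 0.521).

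**Figure D4:**
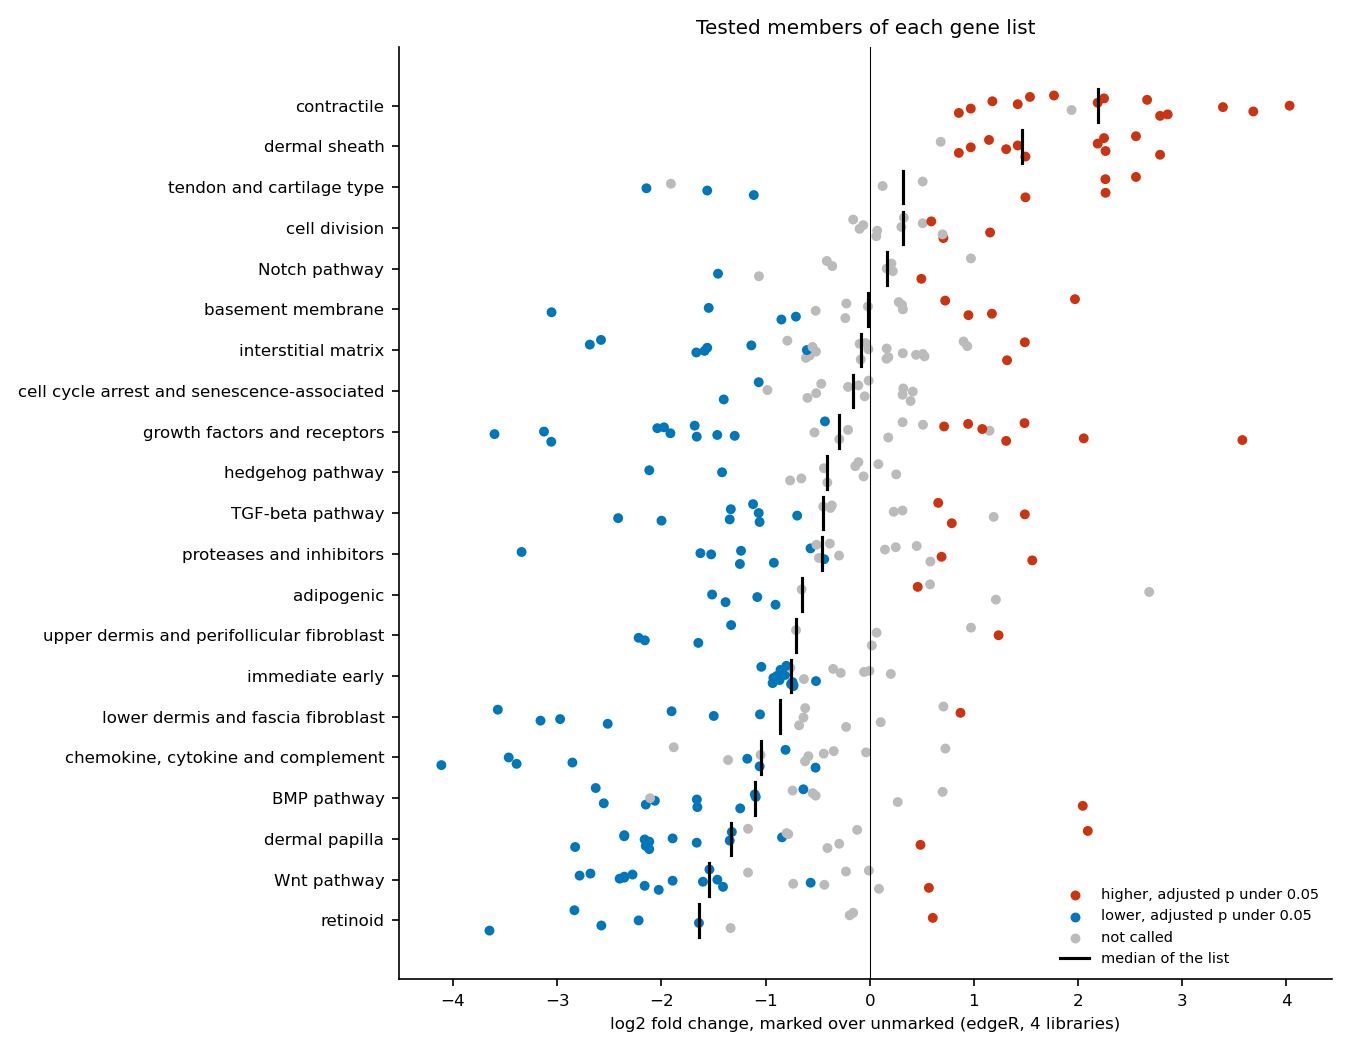
log2 fold change of marked over unmarked cells (edgeR, 4 libraries) for the tested members of 21 gene lists, ordered by the median (black bar), with members at an adjusted p under 0.05 in red (higher) or blue (lower). The contractile and dermal sheath lists have the highest medians (2.19 and 1.46) and the retinoid list the lowest (-1.64).

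The genes of the sort are given apart, because the cells were collected by their proteins, and the part of the sort in their differences was not tested. Dpp4, which encodes Cd26, was at 4.11, 8.02, 3.32 and 2.92 CPM in marked and 30.4, 50.1, 24 and 39.4 CPM in unmarked cells (-2.97 ± 0.21, SE). Cd200 was at 616, 583, 509 and 526 against 198, 161, 155 and 187 CPM (1.76 ± 0.10, SE), and Itga9 at 20, 12.9, 15.3 and 6.71 against 20.2, 16.5, 49.7 and 31 CPM, which did not pass the test (log2 fold change -1.18 ± 0.32 SE, adjusted p = 0.0541). At least 1 Dpp4 UMI was seen in 3.37%, 5.49%, 3.88% and 3.25% of marked and 19.1%, 25.8%, 15.8% and 28.4% of unmarked cells. Most unmarked cells thus had no Dpp4 UMI, and with them alone 1477 genes were called, beside 899 against the unmarked cells with Dpp4, for which only 3 libraries had enough cells. Coch changed sign in the latter comparison (0.40, adjusted p = 0.564). Pdgfra, the receptor gene that marks fibroblasts in general, was at 226, 260.2, 251 and 225 against 223, 207, 202 and 190.2 CPM and was not called (log2 fold change 0.32 ± 0.11 SE, adjusted p = 0.111).

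Markers of other cell types were checked as a whole. The summed level of 7 keratinocyte genes was 1167, 1829, 4180 and 1463 CPM in marked and 9147, 3389, 2026 and 293 CPM in unmarked cells, lower in marked cells of version 2 and higher in those of version 3, and no keratinocyte gene was called. Leukocyte genes summed to 1502, 858, 157 and 136 CPM against 856, 1261, 476 and 237 CPM, with none called and Cd3d at 0 in all 4 unmarked sums. Endothelial genes were near 0, at 4.17 to 29.3 CPM in marked and 4.65 to 25.3 CPM in unmarked sums, with neither of its 2 tested genes called. Melanocyte genes reached at most 31.0 CPM, Schwann cell genes 32.7 CPM and skeletal muscle genes 36.8 CPM in any sum, and the 1 tested Schwann cell gene, Mbp, was lower in marked cells (-1.32 ± 0.28, SE). The part of these cells in the other results was not tested beyond leaving out cells that held such markers, after which 2306 genes were called, 1634 of them among the 1722.

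The 2 groups differed in their make-up by gates on marker genes. Cells with at least 2 of 8 papilla genes (Corin, Sox2, Rspo3, Rspo4, Hhip, Prdm1, Alx4 and Notum) form the papilla gate, other cells with at least 2 of Tnmd, Col11a1, Stmn2 and Npr3 the sheath gate, and the rest neither. The sheath gate held 52.1%, 61.4%, 52.6% and 62.4% of marked and 19.1%, 24.4%, 9.93% and 20.5% of unmarked cells. Marked was higher in all 4 libraries, by 38.7 ± 4.53 percentage points (SD, n = 4), and by 48.7 ± 10.5 points after thinning to 3000 UMIs. The papilla gate held 31.9%, 21.7%, 40.9% and 33.7% of marked and 42.6%, 19.6%, 65.4% and 43.7% of unmarked cells, a difference of -10.8 ± 10.9 points. After thinning it was -19.3 ± 14.5 points and marked was lower in all 4. The papilla gate then held 15.3%, 8.14%, 12.3% and 7.63% of marked and 31.9%, 12.9%, 51.8% and 23.9% of unmarked cells. The sheath gate then held 53.9%, 59.9%, 73.5% and 76.1% of marked cells. Entry to the papilla gate thus depended on depth, and marked cells were deeper. Without thinning, cells in neither gate were 16.0%, 16.9%, 6.46% and 3.94% of marked and 38.3%, 56.0%, 24.7% and 35.8% of unmarked cells. An exact paired permutation test over 4 libraries cannot go below p = 0.125 (two-sided), which the sheath and neither gates reached (adjusted p = 0.15 over 12 comparisons), so these differences could not pass 0.05.

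Within the papilla gate, 142, 150, 1095 and 632 marked cells were compared with 40, 54, 191 and 177 unmarked cells. Many of the marked cells entered this gate only at their full depth, as given above. How many of them are papilla cells was not tested. Of 9918 genes 681 (6.87%) were higher and 674 (6.8%) lower. Contractile genes were higher in 11 of 14 tested members, with a median of 1.60. Markers of other contractile cells moved with them in the gate: of 4 tested pericyte genes Mcam (3.06 ± 0.25, SE), Rgs5 and Cspg4 were higher and Notch3 lower, and of 5 arrector pili muscle genes Actg2, Synm and Cnn1 were higher (2.30 ± 0.27, SE, for Synm). Their part in the result was not tested. Acta2 was at 2136, 2594, 5574 and 7227 CPM in marked and 540.1, 715, 928 and 1623 CPM in unmarked cells of the gate. These ranges did not overlap, as in 9.43% of genes of the gate in either direction, and the log2 fold change was 2.22 ± 0.17 (SE), adjusted p = 0.000219. Casq2, a calcium-binding protein of muscle, was at 8.63, 30.7, 45.4 and 46 against 0, 0, 1.92 and 1.52 CPM (log2 fold change 4.97 ± 0.32 SE, adjusted p = 0.000194), and Sbspon, a secreted protein of the matrix, at 16.5, 27.5, 113 and 121 against 0, 2.44, 7.2 and 5.07 CPM (log2 fold change 4.37 ± 0.23 SE, adjusted p = 7.87e-05). With 0 UMIs in some unmarked sums, the fitted fold changes of both are imprecise. Fbxl22, Zdhhc2, Btla and Kank4 followed with log2 fold changes of 4.27, 3.90, 3.74 and 3.60. Fbxl22 and Btla also had 0 UMIs in some unmarked sums.

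Papilla genes that did not define the gate were lower in its marked cells, with 10 of 12 lower and Tbx18 higher (log2 fold change 2.19 ± 0.16 SE, adjusted p = 0.000204). These are differences between cells of the gate, which were not shown to be papilla cells in both groups. Fgf7 was at 364, 224, 178 and 74.4 CPM in marked and 666, 732, 849.9 and 370.3 CPM in unmarked cells of the gate (log2 fold change -1.73 ± 0.21 SE, adjusted p = 0.00148). Edn3, the endothelin ligand that acts on pigment cells, was at 133, 70.6, 60.7 and 11.9 against 599, 363, 423 and 218 CPM. Every marked value was below every unmarked one, and this was the most negative named gene of the gate (log2 fold change -2.80 ± 0.29 SE, adjusted p = 0.00082). Thsd4, Loxl3, Col26a1, Ifi205 and Slc26a7 were next, at -2.66, -2.66, -2.61, -2.51 and -2.50. Wnt pathway genes were lower in 11 of 15 and immediate early genes in 1 of 21, Socs3, with 1, Klf4, higher. Pi16 was not called here (log2 fold change -0.88 ± 0.27 SE, adjusted p = 0.0648), while Col1a2 was higher (log2 fold change 1.13 ± 0.22 SE, adjusted p = 0.0111) and Pdgfra too (log2 fold change 0.60 ± 0.15 SE, adjusted p = 0.0255). The number of calls in the gate was 419 without the 12-month library, 473 without the version 3 library of 2 months and 2060 without the version 2 library of 2 months.

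The sheath gate had 18 unmarked cells in the version 2 library of 2 months, under the minimum of 20, so that library was left out and 425, 1409 and 1171 marked cells were compared with 67, 29 and 83 unmarked cells (18 months, 2 months and 12 months). Of 10076 genes 239 (2.37%) were higher and 317 (3.15%) lower. Contractile genes were higher in 13 of 15 tested members with a median of 1.55, and all 8 tested sheath genes outside the gate's own were higher, 6 of which are on the contractile list too. Acta2 was at 3378, 7331 and 7998 CPM in marked and 1268, 1247 and 1575 CPM in unmarked cells (log2 fold change 2.20 ± 0.22 SE, adjusted p = 0.00145). Named genes on the higher side were Tnnt2, a troponin (4.19), Ly6g6c (4.09), Sprr1a (3.39), Cnn1 (3.38), a Ccl21a copy whose paralogs share its sequence (3.22) and Fam25c (3.14). Unmarked sums held 1, 1 and 0 UMIs of Tnnt2, 1, 0 and 5 of Ly6g6c, 2, 0 and 2 of Sprr1a and 0, 2 and 1 of Cnn1. Those of Ccl21a were 0, 3 and 2 and those of Fam25c 1, 11 and 2, so these fold changes are imprecise. Markers of other cell types differed in this gate too. Of 7 keratinocyte genes Krt1 (2.55 ± 0.34, SE) and Krtdap (3.00 ± 0.54, SE) were higher and Krt5 (-1.56 ± 0.38, SE) lower, and of 6 tested leukocyte genes Lyz2 was higher (1.79 ± 0.31, SE). The pericyte genes Mcam and Cspg4 and the arrector pili muscle genes Actg2 and Cnn1 were higher. Their part in the result was not tested. Unmarked cells of the gate had fascia fibroblast genes, with Pi16 at 399.5, 797 and 670.3 CPM against 59.7, 9.57 and 32.6 CPM in marked cells (log2 fold change -4.38 ± 0.55 SE, adjusted p = 0.00321). Clec3b was at 358, 419 and 288 against 76.9, 9 and 8.18 CPM, and 7 of 12 tested genes of that list, the sort gene Dpp4 among them, were lower in marked cells. Immediate early genes were lower in 10 of 21, and Lef1, Abca8a, Angptl1 and Rbp4 had log2 fold changes of -4.22, -4.74, -4.51 and -4.17. The calls of Tnnt2 (adjusted p = 0.0593), Sprr1a (0.102) and Rbp4 (0.0752) were lost without the 12-month library, and that of Rbp4 also without the version 3 library of 2 months (0.183). The calls numbered 172 without the 12-month library and 1058 without the 18-month library, and they rest on 29 unmarked cells in the version 3 library of 2 months.

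Cells in neither gate, 71, 117, 173 and 74 marked and 36, 154, 72 and 145 unmarked, showed another pattern. Of 8146 genes 33 (0.405%) were higher and 170 (2.09%) lower, 2.49% in all, and groups did not overlap in 7.91%. Rgs5 was at 1747, 673, 68.9 and 53.6 CPM in marked and 4.2, 2.82, 0 and 0 CPM in unmarked cells, highest in the version 2 libraries, and Myh11 at 241, 114, 2494 and 4 against 8.4, 0.941, 15.9 and 0 CPM. The log2 fold changes were 8.08 ± 0.36 and 6.69 ± 0.49 (SE), with 0 UMIs in some unmarked sums, and Mcam and Notch3 of the pericyte list were higher as well. Of 6 tested pericyte genes Rgs5, Mcam and Notch3 were higher and 3 were not called. The log2 fold change was above 0 for 4 of the 6. Marked cells in neither gate thus carried Rgs5, Mcam and Notch3 although they passed the rule on Col1a1, and they are called by that gate here. Of 6 tested leukocyte genes C1qa, Pf4 and Lyz2 were lower in marked cells (-2.15 ± 0.31, -2.06 ± 0.34 and -1.93 ± 0.34, SE), and of 7 keratinocyte genes Krt5 was higher (2.37 ± 0.42, SE). The part of these cells in the result was not tested. Fabp4 (5.13), Cox4i2 (5.08), Gm13889 (4.47) and Lor (4.10) completed the higher side, and Myoc (-4.86), C3 (-3.17), F13a1 (-3.12), Opcml (-2.96), Sfrp2 (-2.85) and Scn7a (-2.84) the lower. Cox4i2 had 2, 2, 2 and 3 UMIs in the unmarked sums, and Gm13889 and Lor had 0 in that of the version 2 library of 2 months. On the lower side Myoc had 0, 1, 9 and 0 UMIs in the marked sums. F13a1 had 0 in the marked sum of the version 2 library of 2 months and Sfrp2 0 in that of the 12-month library. The fitted fold changes of these 3 genes are imprecise as well. Interstitial matrix genes were lower in 10 of 26, Col1a2 among them (log2 fold change -1.85 ± 0.15 SE, adjusted p = 0.00734). The calls depended on the version 2 libraries: Rgs5 and Myh11 were left without the one of 2 months and Rgs5 alone without the one of 18 months. Without the version 3 library of 2 months 103 genes were called and without the 12-month library 173.

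The 24 genes named first were chosen for having the same sign in all 4 libraries, so only the size of their difference can be read side by side across ages. For Acta2 the log2 ratios within libraries were 2.56, 2.46, 3.08 and 2.71, for Ednrb 3.96, 2.86, 3.80 and 3.45, for Pi16 -5.00, -2.31, -3.65 and -3.86 and for Mmp3 -2.91, -3.59, -3.64 and -3.50. Whether the difference changed with age was tested as the interaction of mark and older age (12 or 18 months against 2 months) over the 4 libraries, with 2 residual degrees of freedom. By edgeR's quasi-likelihood test 0 of 11529 genes were called (0%), while 320 had an unadjusted p under that level, and DESeq2 called 3 (0.026%), Wisp2, F5 and Cyp4b1. In simulated counts this test recovered 12.5% of interactions of log2 size 1 and 77.1% of those of size 2, so changes of log2 size 1 or less would seldom have been called. The simulated counts had the same dispersion for every gene, not estimated from these data. Recovery in the real counts may therefore be lower, also for changes of size 2.

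**Figure D5:**
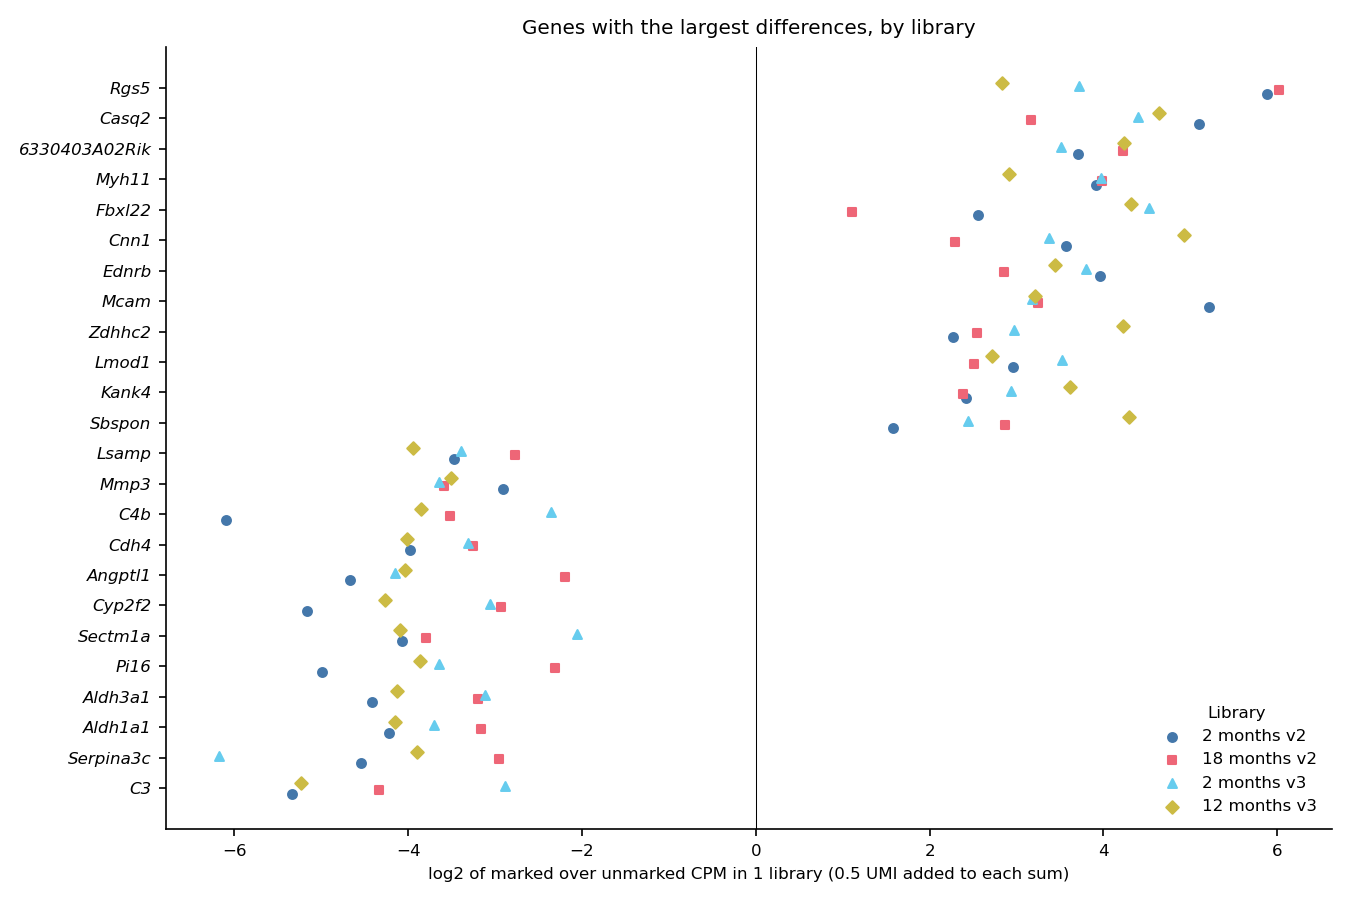
log2 of marked over unmarked CPM within each library for the 12 genes with the largest positive and the 12 with the largest negative fold change, with 0.5 UMI added to each sum. The rule for these genes required the same sign in all 4 libraries, so the plot shows sizes only, and the libraries spread most for C4b, Serpina3c and Fbxl22.

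The genes with the smallest p for the interaction are given as values, since none was called by edgeR. Wisp2, a matricellular protein of the CCN family, had log2 ratios of marked over unmarked of -3.12, -1.18, -3.48 and -1.61, so that its lower level in marked cells was nearer to that of unmarked cells in both older libraries (interaction 1.86 ± 0.21, SE, adjusted p = 0.99995). F5, coagulation factor V, had ratios of -0.52, 1.45, -0.60 and 0.92, and Cyp4b1, a cytochrome P450, ratios of 0.39, -1.02, 0.67 and -1.29. Both changed sign with age in each chemistry, in opposite directions. The fatty acid elongase gene Elovl6 had ratios of -0.63, 0.86, -0.96 and 1.74. These genes had adjusted p of 0.99995 by edgeR, and each rests on 1 library per age and chemistry.

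Levels within each group at the 2 ages were set side by side without a test. Acta2 in marked cells was 0.88 times (95% Poisson interval 0.86 to 0.90) as high at 18 as at 2 months in version 2 and 1.09 times (1.08 to 1.10) at 12 months in version 3. Cdkn2a in marked cells was 4.93 times as high at 18 months (3.54 to 7.02) and 4.93 times at 12 months (4.10 to 5.95), and the levels were 11.0 and 54.0 CPM in version 2 and 3.48 and 17.2 CPM in version 3. In unmarked cells it went from 1 to 310 UMIs in version 2, a ratio of 110.8 with an interval of 19.7 to 4390, and from 7 to 116 UMIs in version 3, a ratio of 11.6 (5.45 to 29.5). Whether marked and unmarked cells differed in this was not called (interaction -2.41 ± 0.71 SE, adjusted p = 1). Lum was higher in the older library of both chemistries in both groups, 3.10 times (2.87 to 3.36) and 3.41 times (3.22 to 3.62) in marked and 2.44 times (2.28 to 2.62) and 4.32 times (4.01 to 4.65) in unmarked cells. Mmp3 followed the same order, 2.03 times (1.59 to 2.61) and 6.07 times (4.91 to 7.54) in marked and 3.24 times (2.69 to 3.94) and 5.50 times (4.44 to 6.89) in unmarked cells. These intervals cover counting error only, and the spread between mice of one age cannot be told apart from age.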

How the data were processed

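Single cells of the 4 libraries were analysed from the authors' UMI count matrices, as deposited, with 27999 gene entries, the added eYFP entry among them. Per the submitters' processing notes, STAR, Cell Ranger 2.0.1 and Seurat 2.1.0 were used with mm10 and GRCm38.p5, and per the file headers the version 3 matrices came from software version 3.0.1. Whether antisense reads were counted is not given in the sources used here. The members of the comparison, the 21 gene lists and 8 lists of other cell types were chosen with earlier results of these data known. Groups follow the labels. One member of the list of cell cycle arrest and senescence is not reported here. No doublet caller was run, and the series' design text estimates 3% doublets.

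Library totals ran from 17831300 to 77032628 UMIs, and the summed groups from 691742 to 43490043. Raw counts were summed per library and group and tested with edgeR 4.0.16 (R 4.3.3, TMM, filterByExpr, library as a term, quasi-likelihood F test, Benjamini-Hochberg 0.05), with eYFP, Col1a1, Ptprc and mitochondrial genes left out. A gate entered in libraries with at least 20 cells in both groups. Marked and unmarked sums are paired by being cells of the same library: across 4400 genes their deviations from the group means correlated at r = 0.54, 0.72, 0.70 and 0.66. In simulated counts of 11610 genes the marked test recovered 86.7% of changes of log2 size 1 and 100% of size 2. The simulations took gene means and library sizes from the real counts and the same assumed dispersion for every gene, so these shares hold for that setting only. Standard errors are the fold change over the square root of F. Ratios within a library add 0.5 UMI.

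Named genes were, for the main contrast, the 12 largest changes in each direction among called genes with the same sign in all 4 libraries and at least 20 CPM in the higher group. For each gate they were the 6 largest in each direction, for each list up to 4 called members with the smallest p, and for the interaction the 4 with the smallest p. Acta2, the sort genes, Pdgfra, Col1a2 and Cdkn2a were always given. Myl9, Corin, Ednra, Edn3 over all cells, Fos, Rspo3 and other list members named beyond this were chosen after their values were seen. Alternatives were other thresholds on eYFP, Col1a1, cells and low counts, thinning, other scalings, DESeq2 1.42.0, single chemistries and leaving out each library. For fits and marked shares after thinning, the rules on eYFP, Col1a1 and Ptprc were applied to the thinned counts. For gate shares after thinning the original groups were kept.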

Additional observations from a re-analysis of the deposited data

Results flagged for a closer look

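Among the genes named for the contrast over all cells, 96 genes were checked for a library whose log2 ratio of marked over unmarked stood far from the other 3, by Dixon's test at its 95% critical value, which chance passes in about 1 of 20 groups. It was passed by 7 genes. In the version 2 library of 2 months the ratio was 5.21 for Mcam (3.17 to 3.24 in the others), 3.48 for Synpo2 (2.33 to 2.44), 0.53 for Col4a1 (0.94 to 1.02) and -2.40 for Col4a4 (-3.40 to -3.24). In the 12-month library it was 2.91 for Myh11 (3.91 to 3.99) and -2.70 for Bmp2 (-1.38 to -1.28). In the version 3 library of 2 months it was -2.06 for Sectm1a (-4.09 to -3.79).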

How the results depend on the processing

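The 1722 calls over all cells became 899 against unmarked cells with Dpp4 (3 libraries), 676 in version 2 alone and 671 to 1447 when each library was left out in turn. Without the replicate block, that is without pairing marked and unmarked sums by library, 422 were called, all among the 1722. With 10 or more eYFP UMIs against 0 to 2, chosen after seeing the data, 2778 were called. Under no other setting did this count move by more than 1.5 times, but which genes were called changed more than the count. Of the 1722, 1062 were still called at 1 Col1a1 UMI and 1279 at 20. After thinning to 3000 UMIs 1141 were, and 1446 of the 1722 were tested there. At 1 Col1a1 UMI 1696 of 1712 tested kept their sign. Over all settings the members called lower ranged from 4 to 17 in the Wnt list and from 2 to 12 in the BMP list. They ranged from 2 to 12 in the protease list and from 1 to 13 in the chemokine, cytokine and complement list. Without TMM 607 genes were higher and 978 lower, with a median log2 fold change of -0.0945. Interaction calls were 3 by DESeq2 and 0 to 3 with a library left out (Grem1, Prr9 and Mgp without the version 2 library of 2 months, Des without 18 months, Tchh and Krt6b without 12 months). Without the filter on low counts the papilla, sheath and neither gates had 2041, 1057 and 549 calls, and with a library left out 419 to 2060, 172 to 1058 and 1 to 173. The neither gate also had 4 at 1 eYFP UMI (Rgs5, Cox4i2, Lor and Myh11), 78 at 10, 110 in cells of 5000 to 20000 UMIs and 429 by DESeq2. The cause was not tested. Marked shares, in the order used above, were 54.1%, 46.8%, 67.0% and 60.5% at 1 Col1a1 UMI, 82.0%, 56.0%, 89.0% and 74.4% at 20, 83.8%, 78.2%, 91.6% and 85.5% at 1 eYFP UMI, 63.9%, 49.6%, 66.2% and 60.5% at 10, and 71.8%, 54.0%, 74.2% and 63.8% after thinning. Reversed values were 0.40 for Coch against unmarked cells with Dpp4, -0.14 for Birc5 and -0.10 for Top2a after thinning, -0.10 for Top2a at 10 eYFP UMIs against 0 to 2, and -0.79 for Col1a2 in version 2. Over the genes named for the main contrast, 2227 values kept their side of the threshold, 129 lost and 19 gained it. Depth limits genes with few UMIs in the 94 unmarked cells of the version 2 library of 2 months.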
